A study of Mus musculus with 9 samples.

Results

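The cathepsins and their inhibitors described here are 10 mouse genes, of 18193 genes with a probe set of their own on the array. They are the papain-type cysteine cathepsins Ctsz, Ctsb, Ctsh, Ctsl and Ctss, the aspartic cathepsins Ctsd and Ctse, the paired cathepsin inhibitors Ctla2a and Ctla2b, and cystatin C, Cst3. Their members are the 19 probe sets, of 45037 that are not controls, whose single annotated gene symbol is 1 of these 10. The genes were chosen by measured log2 signals, with results of these arrays known: Ctsz had stood among the largest differences between the knockout and wild-type lines, and Ctla2a and Ctla2b among the largest between the tumour and knockout lines. Levels and differences of the 10 genes are therefore a description without a test. Tests are given for other genes of the pathway.

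The 3 mouse lines of C57/BL6 x sv129 background were measured on Affymetrix MG-430 2.0 arrays, with 3 arrays per line. The tumour line, MDA-F471, comes from an adenocarcinoma in the lung of a Gprc5a-knockout female, taken 16 months after an injection of the tobacco carcinogen NNK. The knockout line is a non-tumorigenic epithelial line from the trachea of a Gprc5a-knockout mouse aged 3 weeks, and the wild-type line is its counterpart from a mouse with intact Gprc5a, also aged 3 weeks. The tumour and knockout lines both come from mice labelled Gprc5a-knockout, and neither carried a treatment in culture that the labels name. Each group is a single line, and the labels do not say whether its arrays came from separate cultures, so the errors measure only the spread between arrays. Genotype and line cannot be told apart, nor can tumour origin and the organ, NNK exposure and age that go with it. The 3 comparisons share arrays, so their values are set side by side and not counted as separate evidence.

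Cathepsins are peptidases of the lysosome and endosome. They are made as inactive proenzymes whose propeptide covers the active site, and are cut to the active form in the acidic compartment; some are also secreted and digest matrix. Cystatins and stefins block the cysteine cathepsins outside the cell and in the cytosol. The CTLA-2 proteins are small and resemble the propeptide of cysteine cathepsins, which they inhibit.

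Array medians lay between 6.29 and 6.34 log2, and arrays of a line correlated with each other at 0.990 or above across probe sets. Gprc5a read 7.02 ± 0.06 log2 in the tumour line and 7.16 ± 0.06 in the knockout line, against 8.57 ± 0.22 in the wild-type line (SD, n = 3 each). The signal in the tumour and knockout lines was lower but above the highest value of the background controls, 5.96, and the position of its probes relative to the deletion was not analysed here. The lines also differed in epithelial type. Of 9 airway basal cell markers 7 fell in the tumour line against the knockout line and 8 against the wild-type line by limma, and their summed signal was 9.50 to 9.75 log2 on the tumour arrays, 16.26 to 16.27 on the knockout arrays and 16.34 to 16.43 on the wild-type arrays. Of 13 simple and alveolar epithelial markers 6 rose in the tumour line against either tracheal line, and their summed signal was 16.05 to 16.11 there, beside 14.57 to 14.82 on knockout arrays and 14.40 to 14.43 on wild-type arrays. The tracheal lines differed in these lists too: for knockout against wild-type 3 of 9 basal markers fell, and 2 of 13 simple and alveolar markers rose and 1 fell. The part of these shifts in the differences between lines was not tested. A log2 signal of 5.15, the 95th percentile of 27 Bacillus control probe sets with no target in mouse RNA, is used below as the floor. A signal under it was not told apart from background. Where all 3 arrays of the dimmer line lay under it, a fold is given as a lower bound against the floor. Signals of different probe sets are not compared with each other, because each probe set has its own response.

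Ctla2a and Ctla2b lie on chromosome 13 of the mouse genome (GRCm38.p6), Ctla2a at 60934155 to 60936625 and Ctla2b at 60895351 to 60897934. Their promoters are shown because the genes had the same pattern over the lines and because close copies can share probes. Each line below gives the 250 bases before a RefSeq start site, read 5′ to 3′ on the minus strand, at chr13:60936626-60936875 for Ctla2a and chr13:60897448-60897697 for Ctla2b. The Ctla2b window precedes an internal start site and lies inside the annotated span of the gene. Capitals mark TGACTCA, a form of the AP-1 site.
Ctla2a: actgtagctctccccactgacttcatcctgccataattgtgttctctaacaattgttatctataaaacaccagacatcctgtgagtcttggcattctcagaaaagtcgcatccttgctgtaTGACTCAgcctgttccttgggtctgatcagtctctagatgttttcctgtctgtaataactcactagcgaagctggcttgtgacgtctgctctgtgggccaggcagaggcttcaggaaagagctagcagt
Ctla2b: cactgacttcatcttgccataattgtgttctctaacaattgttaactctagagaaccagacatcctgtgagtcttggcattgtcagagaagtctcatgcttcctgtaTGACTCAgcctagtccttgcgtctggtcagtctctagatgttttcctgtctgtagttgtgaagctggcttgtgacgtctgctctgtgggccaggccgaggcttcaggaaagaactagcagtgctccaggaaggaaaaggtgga
Over 228 aligned bases the promoters were 91.7% identical, and each held TGACTCA once. The motif was sought on both strands and occurred in 4.5% of 32851 promoter windows of this length. A match of letters does not show that a factor binds there.

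Ctla2a was at the level of background in both tracheal lines and high in the tumour line. Its probe set read 12.96, 13.02 and 12.93 log2 on the tumour arrays. It read 5.21, 5.19 and 5.01 on the knockout arrays and 4.35, 4.48 and 4.62 on the wild-type arrays. The tumour arrays lay far above all others, and the knockout arrays lay around the floor, with 1 of 3 under it, above the wild-type arrays without overlap. Ctla2a was at least 226-fold higher in the tumour line than in the wild-type line, and at least 129-fold with the floor at the highest control value. The log2 signal difference was 7.83 ± 0.10 SE for tumour against knockout and rests in part on background, since the knockout mean of 5.14 lay just under the floor. For knockout against wild-type it was 0.66 ± 0.10 SE, with 2 of 3 knockout arrays just above the floor and all wild-type arrays under it, so no fold is given.

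Ctla2b, the neighbouring copy, had the same order of lines. It read 11.44, 11.60 and 11.47 log2 on the tumour arrays, 4.11, 4.55 and 4.68 on the knockout arrays and 4.04, 4.02 and 3.91 on the wild-type arrays. All 6 arrays of the tracheal lines lay under the floor, and all tumour arrays lay above it. Ctla2b was at least 81.8-fold higher in the tumour line than in the knockout line, and at least 81.8-fold higher than in the wild-type line, since both bounds use the same floor; with the floor at the highest control value the bound was 46.6-fold. The signals of the 2 genes cannot be fully separated, because copies this alike may share probe targets.

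The CTLA-2 proteins were first described in activated T cells and mast cells, so markers of those cells were set beside the result. Of 11 measured T cell, NK and mast cell markers, limma called 0 in any comparison, and 1 had an unadjusted p under 0.05 in the tumour line against the knockout line and 1 against the wild-type line. Without the fold threshold, the markers with a limma adjusted p under 0.05 numbered 0 for tumour against knockout and 1 in each other comparison. For tumour against wild-type this was Mcpt4, higher at 5.43 against 5.16 log2 (limma adjusted p = 0.0281). The summed signal of the 11 markers was 9.49 to 9.66 log2 on the tumour arrays, 9.58 to 9.60 on the knockout arrays and 9.50 to 9.62 on the wild-type arrays, and 2 markers lay under the floor on every array of each line. The leukocyte gene Ptprc read 4.48, 4.41 and 4.48 log2 in the tumour, knockout and wild-type lines, under the floor in each. Of 9 endothelial markers limma called 0, with an unadjusted p under 0.05 for 0 in the tumour line against knockout and 1 against wild-type. Their summed signal was 9.38 to 9.46 on the tumour arrays, 9.38 to 9.39 on the knockout arrays and 9.32 to 9.42 on the wild-type arrays.

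Cst3 encodes cystatin C, a secreted inhibitor of cysteine cathepsins. Its single probe set read 10.62, 10.56 and 10.62 log2 on the tumour arrays, 10.70, 10.88 and 10.97 on the knockout arrays and 12.67, 12.55 and 12.66 on the wild-type arrays. Both the tumour and knockout lines lay below the wild-type line without overlap, and the tumour arrays lay just below the knockout arrays. Cst3 was 3.43-fold lower in the knockout line than in the wild-type line (log2 difference -1.78 ± 0.09 SE), and 4.07-fold lower in the tumour line (-2.03 ± 0.09 SE). Between the tumour and knockout lines it differed by -0.25 ± 0.09 SE.

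**Figure D1:**
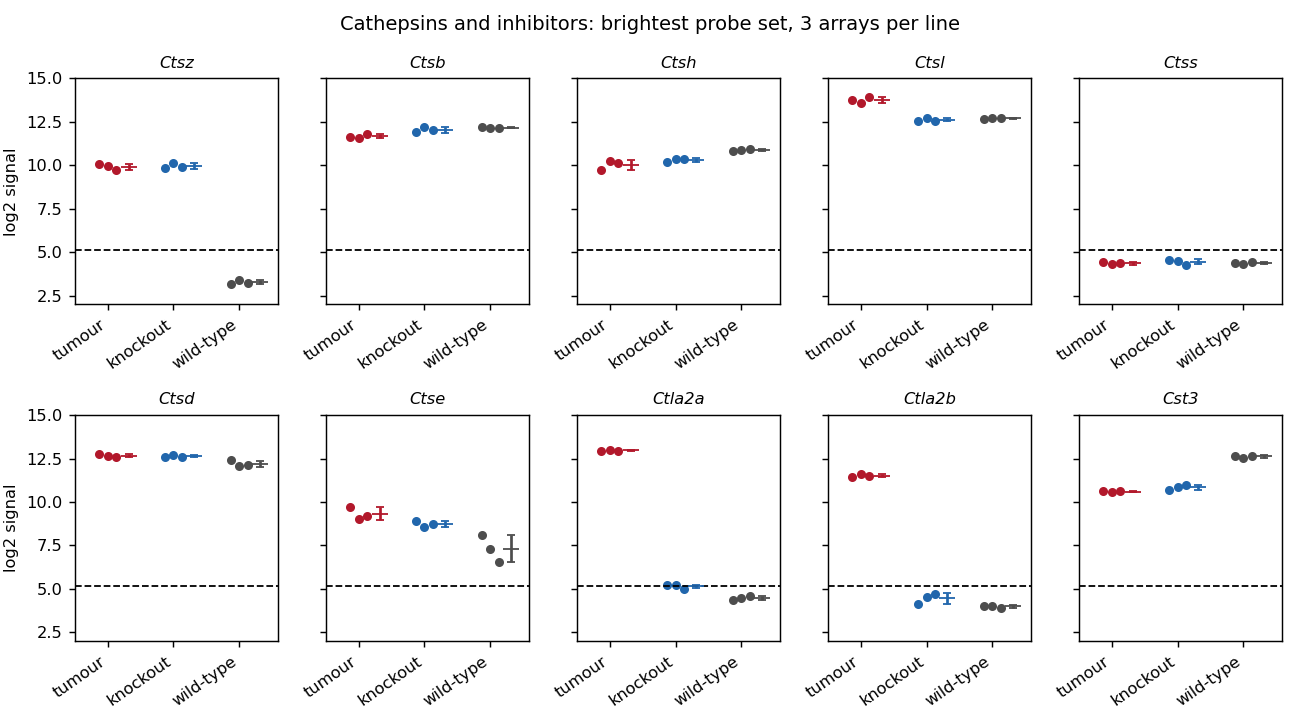
Log2 signal (vertical axis) of the brightest probe set of each of the 10 genes in the tumour, knockout and wild-type lines (horizontal axis); points are the 3 arrays of a line, the bar beside them is the mean with its SD, and the dashed line is the floor of 5.15. Ctsz is high in the tumour and knockout lines, Ctla2a and Ctla2b are high in the tumour line, Cst3 is highest in the wild-type line, and Ctss lies under the floor throughout; heights are not comparable between genes.

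Ctsz encodes cathepsin Z, also named X, a carboxypeptidase that carries an integrin-binding motif in its propeptide. It lies on chromosome 2 at 174427494 to 174439039. Its promoter is set beside that of Ctsd, because they differ in the E-box CACGTG, the core of the CLEAR elements through which TFEB-family factors act on lysosomal genes. The 250 bases before each start site are on the minus strand, at chr2:174439040-174439289 for Ctsz and chr7:142387828-142388077 for Ctsd. Capitals mark CACGTG in Ctsd, and GGGCGG, the GC box, in Ctsz, where 2 copies overlap; the Ctsd window also holds 2 copies of GGGCGG, which are not marked.
Ctsz: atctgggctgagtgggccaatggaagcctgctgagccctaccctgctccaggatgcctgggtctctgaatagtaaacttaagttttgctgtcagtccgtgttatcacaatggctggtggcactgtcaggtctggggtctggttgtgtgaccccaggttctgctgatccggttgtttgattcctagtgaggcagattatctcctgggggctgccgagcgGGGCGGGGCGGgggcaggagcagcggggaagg
Ctsd: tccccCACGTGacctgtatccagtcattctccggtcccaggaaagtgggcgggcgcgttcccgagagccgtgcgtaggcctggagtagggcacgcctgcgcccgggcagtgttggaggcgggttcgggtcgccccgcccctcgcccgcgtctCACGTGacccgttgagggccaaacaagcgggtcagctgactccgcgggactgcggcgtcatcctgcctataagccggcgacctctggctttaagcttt
CACGTG occurred 2 times in the Ctsd window and 0 times in the Ctsz window. Of the 10 genes 7 had a window in the set of RefSeq promoters used here, which held none for Ctsb, Ctsh and Ctse. Of these 7 windows 2 held CACGTG, those of Ctsd and Ctsl, as did 6.0% of all 32851 windows. The Ctsl window, like that of Ctla2b, lies inside the annotated span of the gene. GGGCGG, sought on both strands, occurred in 4 of the 7 and in 32.7% of all windows. That a motif is missing from these bases says nothing about the factor.

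Ctsz was high in the tumour and knockout lines and at the level of background in the wild-type line. Its brightest probe set read 10.07, 9.95 and 9.74 log2 on the tumour arrays and 9.84, 10.13 and 9.90 on the knockout arrays, against 3.16, 3.39 and 3.22 on the wild-type arrays. The tumour and knockout arrays overlapped, while all 3 wild-type arrays lay under the floor. By this probe set Ctsz was at least 28.0-fold higher in knockout and at least 27.2-fold higher in tumour than in wild-type cells. With the floor at the highest control value the bounds were 16.0-fold and 15.5-fold. Between the tumour and knockout lines the log2 difference was -0.04 ± 0.11 SE.

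Ctsz has 2 further probe sets, and against the wild-type line both gave the same direction with a smaller difference. The probe set 1417870_x_at read 8.93 ± 0.19 in tumour cells, 9.03 ± 0.15 in knockout cells and 4.95 ± 0.40 in wild-type cells (SD, n = 3 each). The probe set 1417869_s_at read 8.59 ± 0.10, 8.50 ± 0.15 and 5.36 ± 0.37 in the same lines. For knockout against wild-type the log2 differences were 4.08 ± 0.18 SE and 3.14 ± 0.16 SE, against 6.70 ± 0.11 SE by the brightest probe set. Their folds of 16.9 and 8.82 lie below the bound of 28.0 from the brightest probe set. The wild-type signal lay around the floor by both, with 2 of 3 and 1 of 3 arrays under it. The suffix _x_at marks a probe set that can pick up other sequences, and _s_at one whose probes match several transcripts.

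Macrophages express much cathepsin Z, and markers of that cell type were set beside it. Of 13 macrophage markers, limma called 0 for knockout against wild-type, where 2 had an unadjusted p under 0.05 and 2 an adjusted p under 0.05, under 2-fold. The summed signal of the 13 markers was 9.91 to 10.01 log2 on the knockout arrays and 9.86 to 9.97 on the wild-type arrays. On the tumour arrays it was 11.35 to 11.46, with 2 markers called higher against either tracheal line. These were Cd14, a receptor for bacterial lipopolysaccharide, at 10.61 ± 0.06 in the tumour line against 7.55 ± 0.15 in the knockout line (SD, n = 3 each), and the mannose receptor Mrc1, named after its values were seen, at 8.24 against 4.72. Without the fold threshold, 3 macrophage markers had an adjusted p under 0.05 against the knockout line and 4 against the wild-type line. Among the 4 was Adgre1, which was lower in the tumour line, at 6.51 against 6.96 in the wild-type line (log2 difference -0.44, limma adjusted p = 0.0106). Csf1r, the growth factor receptor of macrophages, read 8.03 ± 0.09 in tumour cells, 7.68 ± 0.16 in knockout cells and 7.52 ± 0.12 in wild-type cells (SD, n = 3 each), higher in tumour cells with a limma adjusted p of 0.0108 and 0.000704 but under 2-fold. Itgam and Ptprc lay under the floor in every line, with Itgam at 4.44, 4.45 and 4.36 in the tumour, knockout and wild-type lines. The part of such cells in the Ctsz signal of the tumour line was not tested.

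By the rule of smallest distance over the 9 arrays, each profile centred on its own mean, the genes most like Ctsz were the neutrophil chemokine Cxcl5, the aldo-keto reductase Akr1c13, Tmem47 and the aldehyde dehydrogenase Aldh2, at distances of 2.06, 2.65, 3.47 and 4.29 log2 units. Cxcl5 read 11.25 ± 0.46 in the tumour line and 11.45 ± 0.45 in the knockout line, against 5.95 ± 0.23 in the wild-type line (SD, n = 3 each). The same rule named Ccn2, a matrix-associated growth factor, the uncharacterised AI467606, the muscle ankyrin-repeat gene Ankrd1 and the actin-bundling Lcp1 for Ctla2a, at distances of 2.14, 2.23, 2.50 and 2.76. Ccn2 read 13.09 ± 0.04 in tumour cells, 5.73 ± 0.37 in knockout cells and 6.15 ± 0.46 in wild-type cells (SD, n = 3 each).

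Ctse encodes cathepsin E, an aspartic protease known from stomach and immune cells, and its 2 probe sets disagreed. The probe set 1418989_at read 11.07, 11.02 and 10.99 log2 on the tumour arrays, 7.18, 6.90 and 6.54 on the knockout arrays and 6.91, 7.00 and 7.05 on the wild-type arrays. By it the tumour arrays lay far above the others, and the knockout and wild-type arrays overlapped. The log2 difference was 4.16 ± 0.14 SE for tumour against knockout and 4.04 ± 0.14 SE for tumour against wild-type, with folds of 17.8 and 16.5. For knockout against wild-type it was -0.11 ± 0.14 SE.

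The other Ctse probe set, 1427797_s_at, was the brighter of the pair on average and spread more. It read 9.74, 9.02 and 9.19 on the tumour arrays, 8.90, 8.59 and 8.74 on the knockout arrays and 8.08, 7.31 and 6.54 on the wild-type arrays. The order was tumour, knockout and wild-type without overlap. The log2 differences were 0.57 ± 0.31 SE for tumour against knockout, 1.43 ± 0.31 SE for knockout against wild-type and 2.01 ± 0.31 SE for tumour against wild-type. Without wild-type replicate 3, its lowest array, the knockout difference from wild-type was 1.05, and without wild-type replicate 1 it was 1.82. Both probe sets put the tumour line above the wild-type line. They differed on the knockout line, which lay with the wild-type line by the first and between the others by the second.

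The 3′ to 5′ difference of the beta-actin controls, which grows with RNA degradation or incomplete labelling, was 0.75, 1.09 and 1.78 log2 on wild-type replicates 1, 2 and 3, whose 1427797_s_at signals were 8.08, 7.31 and 6.54. Tumour arrays gave 0.37 to 0.74 and knockout arrays 0.90 to 0.95. Its part in the Ctse difference was not tested. The gene most like Ctse by this probe set was Bace1, another aspartic protease, at a distance of 1.01, and it read 6.96 ± 0.65 in the wild-type line (SD, n = 3). The other 3 were the interleukin receptor Il4ra, Samd5 and the glycosyltransferase B3gnt3, at 1.08, 1.08 and 1.12.

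**Figure D2:**
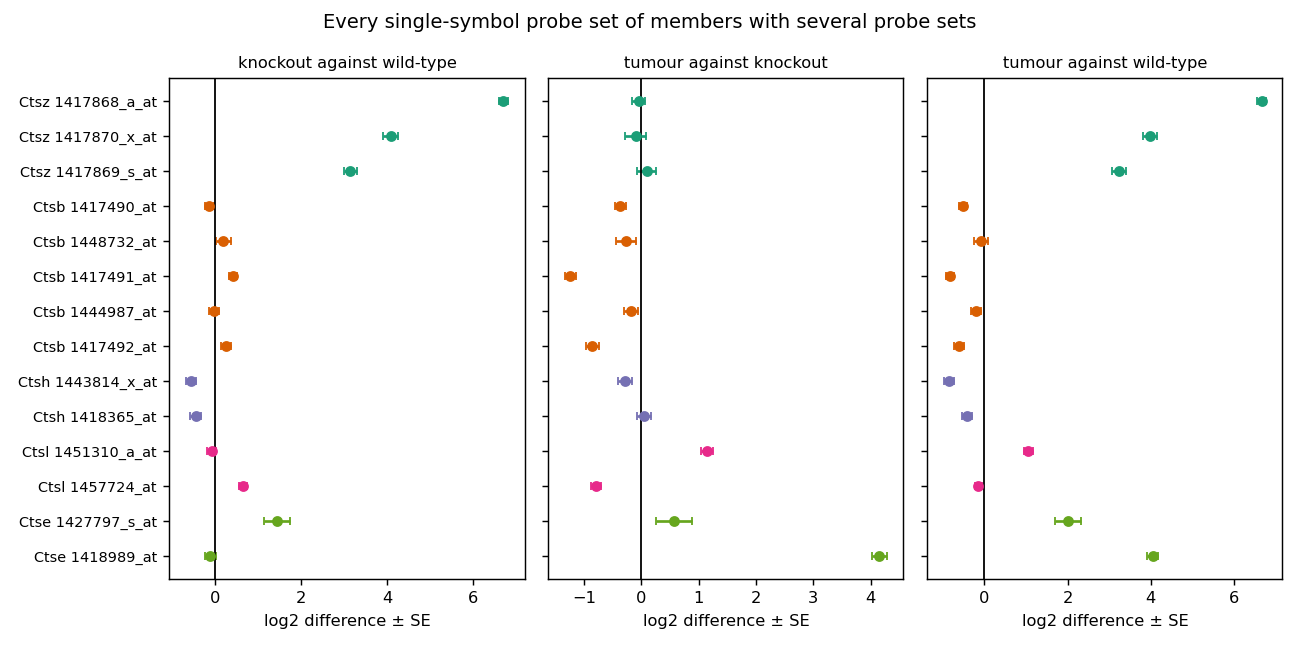
Log2 difference with its SE (horizontal axis) for every single-symbol probe set (rows) of the 5 genes that have several, in the 3 comparisons; a positive value means higher in the line named first. The Ctsz probe sets share their direction wherever the difference is large, the Ctse probe sets part in the comparisons with the knockout line, and the dim Ctsl probe set runs against the bright one.

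Ctsl encodes cathepsin L, an endopeptidase that Ctla2a and cystatins block. Its bright probe set read 13.79, 13.60 and 13.92 log2 on the tumour arrays, 12.56, 12.73 and 12.58 on the knockout arrays and 12.68, 12.70 and 12.75 on the wild-type arrays. The tumour arrays lay above all others, and the knockout and wild-type arrays overlapped. Ctsl was 2.22-fold higher in the tumour line than in the knockout line (log2 difference 1.15 ± 0.10 SE) and 2.09-fold higher than in the wild-type line (1.06 ± 0.10 SE). Its other probe set, 1457724_at, was dim, at 5.49 ± 0.09 in tumour cells, 6.27 ± 0.06 in knockout cells and 5.63 ± 0.11 in wild-type cells (SD, n = 3 each), close to the floor and in the tumour and wild-type lines under the highest control value of 5.96. It went the other way for tumour against knockout (-0.78 ± 0.09 SE). The call of a direction for Ctsl rests on the bright probe set.

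Ctsb encodes cathepsin B, which acts both as an endopeptidase and as a carboxypeptidase, and has 5 probe sets. The brightest read 11.65, 11.58 and 11.79 log2 on the tumour arrays, 11.90, 12.19 and 12.01 on the knockout arrays and 12.21, 12.14 and 12.17 on the wild-type arrays. The tumour arrays lay below the others by a small step, and the knockout and wild-type arrays overlapped. The log2 difference was -0.36 ± 0.10 SE for tumour against knockout and -0.50 ± 0.10 SE for tumour against wild-type. All 5 probe sets had a negative difference in both comparisons, between -0.18 and -1.24 for tumour against knockout and between -0.08 and -0.82 for tumour against wild-type. The widest came from 1417491_at, at 6.17 ± 0.08 in tumour cells, 7.41 ± 0.10 in knockout cells and 7.00 ± 0.11 in wild-type cells (SD, n = 3 each).

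Ctsh encodes cathepsin H, an aminopeptidase that in alveolar type II cells processes surfactant protein B. Its brighter probe set, 1443814_x_at, read 9.71, 10.23 and 10.13 log2 on the tumour arrays, 10.20, 10.36 and 10.36 on the knockout arrays and 10.82, 10.90 and 10.91 on the wild-type arrays. The wild-type arrays were highest, and the tumour and knockout arrays overlapped. The difference from the wild-type line was -0.57 ± 0.12 SE in the knockout line and -0.85 ± 0.12 SE in the tumour line. The other probe set gave -0.46 ± 0.13 SE and -0.41 ± 0.13 SE, with overlap between the tumour and wild-type arrays.

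Ctsd encodes cathepsin D, the main aspartic protease of the lysosome. Its single probe set read 12.78, 12.66 and 12.57 log2 on the tumour arrays, 12.59, 12.71 and 12.60 on the knockout arrays and 12.39, 12.06 and 12.12 on the wild-type arrays. The tumour and knockout arrays overlapped and both lay above the wild-type arrays, by 0.48 ± 0.11 SE and 0.45 ± 0.11 SE. Ctss encodes cathepsin S, which in antigen-presenting cells trims the invariant chain. Its single probe set lay under the floor on all 9 arrays, at 4.36 ± 0.07 in tumour cells, 4.44 ± 0.15 in knockout cells and 4.37 ± 0.06 in wild-type cells (SD, n = 3 each), so no difference is read from it.

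With the brightest probe set of each gene, 2 of the 10 genes were at least 2-fold higher in the knockout line than in the wild-type line without overlap of arrays, Ctsz and Ctse, and 1 was lower, Cst3; over all genes, 4.87% met that rule in either direction. For tumour against knockout 3 were higher, Ctla2a, Ctla2b and Ctsl, and 0 lower, where 14.2% of all genes met it. For tumour against wild-type 5 were higher, these 3 with Ctsz and Ctse, and 1 was lower, Cst3, where 16.6% met it. Without a fold threshold, arrays did not overlap for 7, 6 and 9 of the 10 genes in these comparisons, beside 39.1%, 52.3% and 54.7% of all genes. The list was drawn up with these comparisons known, so nothing is read from the counts. The median log2 difference of the 10 genes was 0.26 in the first comparison, -0.0025 in the second and 0.77 in the third, where the medians of all genes were -0.0042, 2.7e-05 and 0.01.

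The other inhibitors of cathepsins fell or were not called. A gene is called here at a limma adjusted p under 0.05 over all 18193 genes and a difference of at least 2-fold, which took in 4.88% of all genes for knockout against wild-type (1.9% higher and 2.98% lower), 14.2% for tumour against knockout (7.79% and 6.38%) and 16.6% for tumour against wild-type (8.09% and 8.46%). Of 20 listed inhibitors 13 were measured. Stfa2l1, Cst10, Cst11, Cst12 and Cst13 lay under the floor on every array, and Cst7, Cst9 and Kng1 had means under the highest control value of 5.96 in each line. The counts and medians include these dim genes. For knockout against wild-type 0 rose and 4 fell, with a median of -0.07; for tumour against knockout 0 rose and 1 fell (median -0.04); and for tumour against wild-type 0 rose and 4 fell (median -0.18).

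Csta1, a stefin of squamous epithelium, read 3.98, 4.28 and 4.27 log2 on the tumour arrays, 6.25, 6.17 and 6.09 on the knockout arrays and 9.63, 9.09 and 9.62 on the wild-type arrays. The lines did not overlap, and the tumour arrays lay under the floor. It fell by 3.27 ± 0.14 SE on the log2 scale in the knockout against the wild-type line (limma adjusted p = 2.25e-10), and the tumour line was at least 19.7-fold below the wild-type line (adjusted p = 1.99e-13), or at least 11.2-fold with the floor at the highest control value. Stfa3, another stefin, read 3.91 ± 0.03 in the tumour line and 4.26 ± 0.16 in the knockout line, both under the floor, against 5.94 ± 0.03 in the wild-type line (SD, n = 3 each). It was called lower in each (limma adjusted p = 1.44e-10 and 5.39e-09), but its wild-type mean lay under the highest control value of 5.96, so no bound of the fold is given. Stefin genes form a cluster of close copies, so their probe sets may read more than 1 gene.

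Serpinb3a belongs to the squamous cell carcinoma antigen serpins, whose human counterpart inhibits cysteine cathepsins. It read 5.45 ± 0.04 in the tumour line and 5.76 ± 0.14 in the knockout line, against 9.10 ± 0.15 in the wild-type line (SD, n = 3 each), with a log2 difference of -3.65 ± 0.10 SE for tumour against wild-type (limma adjusted p = 4.62e-13) and -3.34 ± 0.10 SE for knockout against wild-type (adjusted p = 7.23e-12). Its tumour and knockout means lay above the floor but under the highest control value of 5.96, so both differences may rest in part on background. The only Serpinb3a probe set ends in _x_at and can pick up other members of that serpin family. Cst6, cystatin M, of skin and gland epithelium, read 7.42, 7.37 and 7.11 on the tumour arrays, 6.75, 7.10 and 6.92 on the knockout arrays and 8.74, 8.66 and 8.79 on the wild-type arrays. It fell by 1.43 ± 0.11 SE in the tumour line (adjusted p = 4.14e-08) and by 1.81 ± 0.11 SE in the knockout line (adjusted p = 1.42e-08), both against the wild-type line. The cytosolic stefin B gene Cstb was not called: it read 13.12 ± 0.01 in tumour cells, 13.29 ± 0.04 in knockout cells and 12.90 ± 0.19 in wild-type cells (SD, n = 3 each).

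Markers of epithelial type also differed between the knockout and wild-type lines, but most did not meet the rule for a call. That held for 6 of 9 basal markers, with a list median of -0.07 log2. It also held for 10 of 13 simple and alveolar markers, with a median of -0.003. Without the fold threshold, 5 of the 9 basal and 7 of the 13 simple and alveolar markers had a limma adjusted p under 0.05. Between the knockout and wild-type lines the basal and squamous markers Trp63, Dsc3 and Pdpn, named after their values were seen, differed by -1.36, -2.52 and -3.72 log2 (limma adjusted p = 4.46e-07, 1.09e-09 and 1.61e-12). That is 33.3% of the 9 basal markers, beside 4.88% of all genes. Krt5 and Krt14 were not called, at -0.07 and 0.16. Among simple epithelial markers Krt18 and Cldn7 differed by 2.55 and 2.12, and Krt19 by -4.90 (adjusted p = 1.98e-09, 2.11e-09 and 9.52e-13). The part of these shifts in the levels of the inhibitors was not tested.

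**Figure D3:**
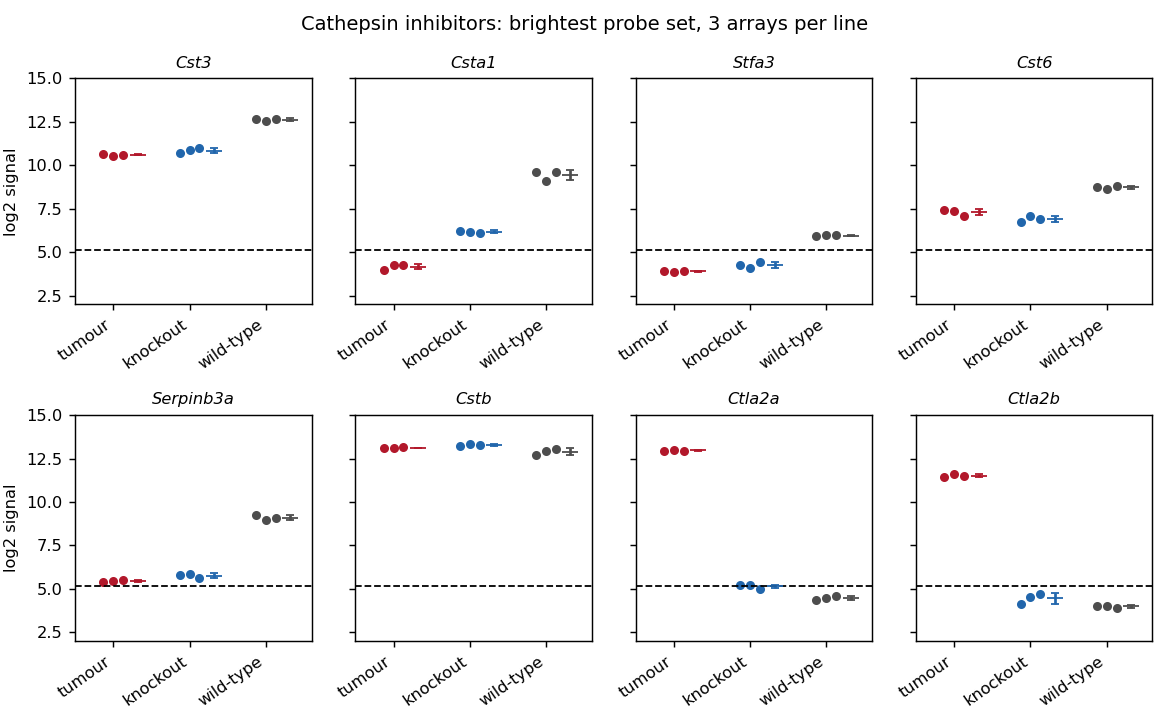
Log2 signal (vertical axis) of 8 cathepsin inhibitors in the tumour, knockout and wild-type lines (horizontal axis); points are the 3 arrays of a line, the bar beside them is the mean with its SD, and the dashed line is the floor of 5.15. Cst3, Csta1, Stfa3, Cst6 and Serpinb3a are highest in the wild-type line, Cstb differs little, and Ctla2a and Ctla2b are high in the tumour line.

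Of 16 other cathepsins, limma called 0 for knockout against wild-type, where 1 had an unadjusted p under 0.05, and 1 fell and 0 rose in the tumour line against either tracheal line. That one was Ctso, a cysteine cathepsin, at 7.13 ± 0.04 in tumour cells, 8.60 ± 0.05 in knockout cells and 8.63 ± 0.05 in wild-type cells (SD, n = 3 each). The difference was -1.48 ± 0.08 SE for tumour against knockout (limma adjusted p = 1.4e-09), and -0.87 without a call when its probe sets were averaged. Without the fold threshold, 3 of the 16 differed in tumour cells from knockout cells and 4 from wild-type cells (limma adjusted p under 0.05). From wild-type cells, Ctsc and Ctsw differed by 0.68 and 0.69 and Ctsa by -0.51, all under 2-fold. Cts3, Cts6, Cts7, Ctsj, Ctsm, Ctsr and Ctsll3 lay under the floor on every array, so no difference is read from them. Among 10 other lysosomal peptidases 1 rose and 0 fell for knockout against wild-type, 1 rose and 1 fell for tumour against knockout, and 3 rose and 0 fell for tumour against wild-type. Dpp7, a dipeptidyl peptidase, read 8.94 ± 0.21 in the tumour line, against 7.35 ± 0.18 in the wild-type line (SD, n = 3 each; difference 1.59 ± 0.13 SE, adjusted p = 6.59e-08). Bace1 was called higher in the knockout line by 1.03 ± 0.24 SE (adjusted p = 0.00413). Without wild-type replicate 3 that difference was 0.66, and without knockout replicate 1 it was 0.99, and in neither was it called. Legumain, Lgmn, which cuts procathepsins, differed by 0.97 ± 0.14 SE for tumour against wild-type (adjusted p = 4.59e-05), under 2-fold; without wild-type replicate 1 the difference was 1.16 and without tumour replicate 3 it was 1.01, and both were called.

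Across all 127 measured genes of the 8 other lists of the cathepsin and lysosome system, calls went both ways. For knockout against wild-type 4 rose and 6 fell (7.87% called, beside 4.88% of all genes). For tumour against knockout 7 rose and 16 fell (18.1%, beside 14.2%), and 13 in all were called when each gene's probe sets were averaged. For tumour against wild-type 11 rose and 18 fell (22.8%, beside 16.6%). The medians were -0.02, -0.04 and -0.03 log2.

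Lysosomal hydrolases other than peptidases had 23 measured genes. In the tumour line 4 rose and 3 fell against the knockout line, and 5 rose and 2 fell against the wild-type line. Hexa, a subunit of beta-hexosaminidase, read 10.69 ± 0.14 in tumour cells, 7.79 ± 0.23 in knockout cells and 9.26 ± 0.01 in wild-type cells (SD, n = 3 each), which put the knockout line lowest (-1.47 ± 0.12 SE against wild-type, limma adjusted p = 2.16e-07). The beta-glucuronidase gene Gusb rose by 2.47 ± 0.09 SE in the tumour against the knockout line (adjusted p = 1.18e-11). The lysosomal acid lipase gene Lipa fell by 2.26 ± 0.11 SE there (adjusted p = 2.24e-10). For knockout against wild-type 2 hydrolases rose and 1 fell; the acid phosphatase gene Acp5 was among those that rose, by 1.91 ± 0.12 SE (adjusted p = 2.33e-08).

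Of 17 genes of the lysosomal membrane and of lipid binding, limma called 0 for knockout against wild-type. There 10 had an unadjusted p under 0.05 and 6 an adjusted p under 0.05, under 2-fold. For tumour against knockout 1 was called higher and 4 lower (median -0.53). Scarb2, the membrane protein that carries beta-glucocerebrosidase to the lysosome, read 9.58, 9.69 and 10.04 log2 on the tumour arrays and 12.31, 12.35 and 12.10 on the knockout arrays, without overlap. It fell by 2.49 ± 0.13 SE (limma adjusted p = 5.05e-10). For tumour against wild-type 1 rose and 3 fell (median -0.56). Of 19 subunits of the proton pump that acidifies the lysosome, limma called 0 for knockout against wild-type. There 8 had an unadjusted p under 0.05 and 5 an adjusted p under 0.05, under 2-fold. Of these subunits 1 was called higher and 2 lower for tumour against knockout, and 1 higher and 3 lower for tumour against wild-type. Atp6v1b2 fell by 2.20 ± 0.11 SE in the tumour against the knockout line (adjusted p = 3.98e-10), and Atp6v0d1 fell by 1.63 ± 0.10 SE (adjusted p = 2.84e-09).

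Of 20 genes that sort enzymes to the lysosome or switch on lysosomal genes, 0 rose and 1 fell for knockout against wild-type, 0 rose and 3 fell for tumour against knockout (median -0.54), and 1 rose and 5 fell for tumour against wild-type (median -0.45). The sorting receptor Sort1 read 8.13, 8.21 and 8.09 log2 on the tumour arrays, 9.04, 9.33 and 9.14 on the knockout arrays and 10.29, 10.45 and 10.23 on the wild-type arrays, without overlap. It fell by 2.18 ± 0.10 SE in the tumour against the wild-type line (limma adjusted p = 1.16e-10). Its difference of -1.16 ± 0.10 SE for knockout against wild-type was called, but not when its probe sets were averaged (-0.75). The difference of -1.02 ± 0.10 SE for tumour against knockout was not called without knockout replicate 2 (-0.94), without tumour replicate 3 (-0.995) or when its probe sets were averaged (-0.76). The mannose 6-phosphate receptors M6pr (0.60 ± 0.11 SE) and Igf2r (-0.81 ± 0.19 SE) and the factor Tfeb (-0.72 ± 0.12 SE) were not called for tumour against knockout, with adjusted p of 0.000388, 0.00255 and 0.000146 and differences under 2-fold.

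Genes of class II antigen presentation, where cathepsin S acts, had 1 of 9 called higher in the knockout line against wild-type, and 0 higher and 1 lower in the tumour line against knockout. Limma called 0 in the tumour line against wild-type, where 3 had an unadjusted p under 0.05 and 2 an adjusted p under 0.05, under 2-fold. The called gene was H2-Ab1, at 7.21 ± 0.07 in tumour cells, 8.26 ± 0.05 in knockout cells and 7.00 ± 0.18 in wild-type cells (SD, n = 3 each). When its probe sets were averaged it was not called, at 0.98 for knockout against wild-type and -0.79 for tumour against knockout. The invariant chain gene Cd74 read 6.64 ± 0.08, 6.63 ± 0.16 and 6.39 ± 0.07 in the tumour, knockout and wild-type lines and was not called.

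**Figure D4:**
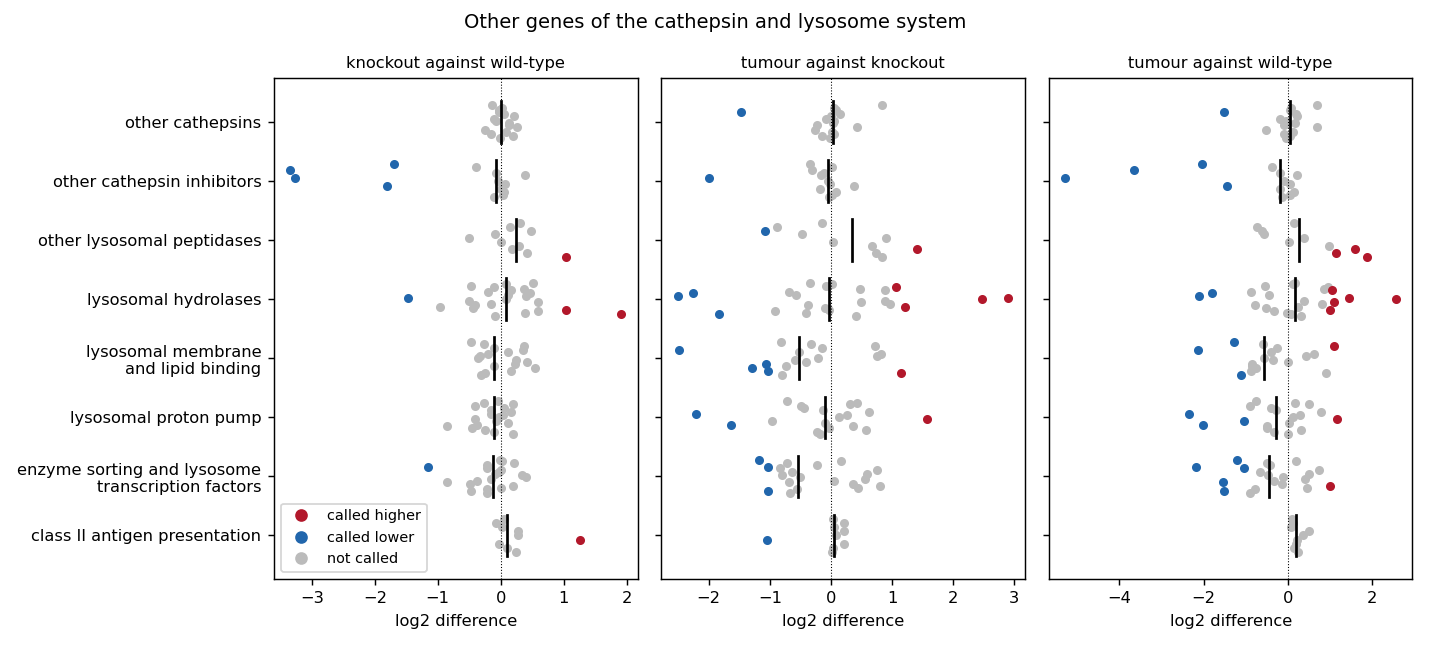
Log2 difference (horizontal axis) of every measured gene in the 8 other lists of the cathepsin and lysosome system (rows), in the 3 comparisons; a positive value means higher in the line named first, colours mark genes called at a limma adjusted p under 0.05 and at least 2-fold, and black bars are list medians. The called inhibitors all lie to the left, while hydrolases are called on both sides in the tumour line.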

How the data were processed

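The authors deposited log2 signals, 1 value for each of 45101 probe sets on each of 9 Affymetrix MG-430 2.0 arrays. Per the labels' protocols, RNA was purified on columns with a DNase step and labelled as biotin cRNA by in vitro transcription. How background was corrected and arrays were normalized is not given in the sources used here. Arrays give no counts, so their number limits the precision.

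Probe sets were named through the platform annotation, with symbols updated by Entrez ID for 34741 of them: 34945 had 1 symbol, 932 several and 9160 none, beside 64 controls. For each gene outside the members, the brightest single-symbol probe set over all arrays was used, which gave 18193 genes. Differences and standard errors come from limma 3.58.1 (lmFit and eBayes) in R 4.3.3 on all 9 arrays, with 6 residual degrees of freedom, for members in a fit of all 45037 probe sets that are not controls. Tests are two-sided, adjusted by Benjamini-Hochberg over all genes. The procedure was tested on simulated data.

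The members and the 14 lists were chosen with earlier results of these data known. The rule for naming genes took in all members, 7 partners of the members and the brightest markers. It also took in the 4 nearest profiles of Ctsz, Ctse and Ctla2a. From each list and comparison it allowed up to 6 called genes with the largest change. Not all genes it took in are named in the text. Those named are a selection, and a gene with a larger change may go unnamed. The floor was chosen after seeing the data. Promoters are those of RefSeq (GRCm38.p6), aligned with Biopython 1.88. The alternatives were other normalizations, probe set choices, filters, fold thresholds, an intensity trend, a replicate block, pairs of lines fitted alone, other floors and leaving out each array.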

Additional observations from a re-analysis of the deposited data

Results flagged for a closer look

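A probe set annotated to both Ctla2b and Ctla2a was outside the members because its signal cannot be given to 1 gene. It read 12.95 ± 0.12 log2 in the tumour line, against 5.15 ± 0.25 in the knockout line and 4.70 ± 0.08 in the wild-type line (SD, n = 3 each). It was picked out because its tumour signal lay above that of both other lines in data the comparisons above did not use. It has the order of lines seen with the single-symbol probe sets of Ctla2a and Ctla2b and may share probe targets with them, so it is no separate evidence. Groups of 3 arrays were too small to be searched for outlying arrays.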

How the results depend on the processing

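The 564 member differences were recomputed under quantile normalization, median centring, the filter on dim probe sets, the replicate block and leaving out each array. Each moved by less than 1 SD of the arrays, which for most was fixed in advance. The filter and the block leave a difference of line means unchanged, and leaving out an array cannot move it by 1 SD. Only quantile normalization and median centring could have moved a value that far. Another probe set changed the direction of Ctse for knockout against wild-type (-0.11) and of Ctsl for tumour against knockout (-0.78) and tumour against wild-type (-0.14). It also changed the sign of 2 small differences for knockout against wild-type, Ctsl (0.65, against -0.09) and Ctsb (up to 0.42, against -0.14 by the brightest). For tumour against knockout it changed the sign of the small differences of Ctsh (0.05, against -0.29) and Ctsz (0.09, against -0.04). The cause was not tested. With the floor at the 90th percentile or at the highest control value, both chosen after seeing the data, the bounds changed. By its brightest probe set Ctsz was at least 35.4-fold or 16.0-fold higher for knockout against wild-type. Ctla2a was at least 286-fold or 129-fold higher for tumour against wild-type, and Ctla2b at least 103-fold or 46.6-fold higher in both tumour comparisons.

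Called genes for knockout against wild-type, tumour against knockout and tumour against wild-type numbered 888, 2578 and 3012. They numbered 4805, 8103 and 8614 with no fold threshold and 2178, 4881 and 5386 at 1.5-fold. In the cathepsin and lysosome system the counts of 10, 23 and 29 became 42, 79 and 82 with no fold threshold, and at 1.5-fold 53 in each of the tumour comparisons. When each gene's probe sets were averaged, the count for tumour against knockout was 13. Leaving out 1 array gave 885 to 904, 2552 to 2637 and 2993 to 3082 genes, and 9 to 11, 21 to 25 and 27 to 29 in the system. With _x_at and _s_at probe sets left out, Zkscan3, a repressor of lysosomal genes, turned to 1.30 for knockout against wild-type and 0.052 for tumour against wild-type.

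With the replicate number as a block the counts were again 888, 2578 and 3012, and 10, 23 and 29 in the system. The block is balanced over the lines and leaves every log2 difference unchanged. Equal counts therefore do not show that replicates had no effect. Same-numbered arrays deviated together in no regular way, with correlations from -0.15 to 0.28, beside -0.21 to 0.24 for arrays of different number. No pairing by number was seen, but with 3 arrays per line it could be missed. The dim signals of Ctss, Ctla2a and Ctla2b in the tracheal lines, and of Ctsz in the wild-type line, limit what can be read from them.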
